A study of Mus musculus with 8 samples.

Results

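The Nr4a genes Nr4a1, Nr4a2 and Nr4a3 encode 3 orphan nuclear receptors, which were examined here in AtT20 cells, a murine line of pituitary corticotroph tumor cells that secrete ACTH. Every probe whose RefSeq accession belongs to one of the 3 genes was taken, whatever its value, which gave 4 probes of 39429 on the array and 3 genes of the 19751 with a symbol. The study asked which genes an agonist of the retinoid X receptors (RXRs) changes in these cells. RNA was compared between 4 control samples and 4 samples incubated with HX630, a synthetic RXR agonist, at 10 μM for 48 hr, and both groups were kept in DMEM with stripped serum. The labels do not say whether the control medium held DMSO, the solvent of HX630, nor whether the samples of a group came from separate experiments, so that p-values measure only the spread between these samples, which may be technical. A single line, dose and time were measured.

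Nr4a receptors are unusual among nuclear receptors in that no hormone is needed to switch them on. Their activity follows largely from how much of them a cell makes, and they are early response genes, which are transcribed within minutes when cAMP, calcium or growth factor signals arrive. In corticotrophs, corticotropin-releasing hormone (CRH) raises cAMP, which frees the catalytic subunit of protein kinase A (PKA) from its regulatory subunits, and the kinase then activates CREB at cAMP response elements. Nr4a1 (Nur77) and Nr4a2 (Nurr1) bind DNA as monomers at the octamer AAAGGTCA and as dimers at a paired site in the promoter of Pomc, the precursor of ACTH, and both can also pair with RXRs. Nr4a3 (NOR-1) shares the DNA-binding domain but does not pair with RXRs.

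The promoters of the 3 genes are shown because all of them carry the core TGACG to which CREB and its relatives bind. The 250 bases before the start of each gene were taken from RefSeq on GRCm38.p6 and are written in the direction of transcription. Capitals mark TGACG or, where the motif lies on the other strand, CGTCA. The Nr4a1 stretch is chr15:101266596-101266845 on the plus strand, that of Nr4a2 is chr2:57124004-57124253 on the minus strand, and that of Nr4a3 is chr4:48045055-48045304 on the plus strand.
Nr4a1: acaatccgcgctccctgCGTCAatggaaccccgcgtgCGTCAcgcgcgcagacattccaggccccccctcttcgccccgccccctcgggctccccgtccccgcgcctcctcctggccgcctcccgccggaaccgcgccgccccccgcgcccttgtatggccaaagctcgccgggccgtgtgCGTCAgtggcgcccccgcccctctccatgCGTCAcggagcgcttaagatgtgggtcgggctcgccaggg
Nr4a2: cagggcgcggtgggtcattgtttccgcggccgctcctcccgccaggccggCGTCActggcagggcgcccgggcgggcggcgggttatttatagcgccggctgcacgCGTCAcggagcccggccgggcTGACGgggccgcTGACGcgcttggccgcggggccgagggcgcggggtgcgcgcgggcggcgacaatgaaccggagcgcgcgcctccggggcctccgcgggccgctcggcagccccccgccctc
Nr4a3: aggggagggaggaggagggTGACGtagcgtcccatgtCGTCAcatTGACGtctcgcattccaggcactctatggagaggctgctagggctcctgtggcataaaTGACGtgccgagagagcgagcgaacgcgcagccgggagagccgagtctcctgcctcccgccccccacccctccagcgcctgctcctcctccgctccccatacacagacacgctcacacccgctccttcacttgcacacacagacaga
Each stretch held 4 copies of TGACG, counted on both strands. In Nr4a1 they began 233, 213, 69 and 40 bases before the start, all on the minus strand. In Nr4a2 they began 200, 144, 123 and 111 bases before it, and in Nr4a3 231, 213, 205 and 147 bases before it. The motif was chosen after the sequences had been read. Among 32851 RefSeq windows of 300 bases (250 before to 50 after a start), 20.8% held at least 1 TGACG and 76 windows (0.231%) held at least 4, so that the 3 Nr4a promoters were among the densest in this core. The full element TGACGTCA, which contains TGACG once on each strand, was found in 1.79% of windows and in none of these 3. The octamer AAAGGTCA was found in 1.51% of windows and in none of these 3. The stretches were rich in G and C, at 74.4% for Nr4a1, 80% for Nr4a2 and 63.6% for Nr4a3.

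Between 69.7% and 73.5% of probes were well above background on each array, which is Feature Extraction's own test of a spot against its surroundings, and no spot was saturated. The signal used below is the log2 processed intensity minus the 75th percentile of the array, so that 0 stands for that percentile. Probes had to pass that test on 4 or more of the 8 arrays to enter the comparison, and they were called at an adjusted p below 0.01 (limma, Benjamini-Hochberg over all tested probes) and a fold change above 1.5. The 4 control arrays lay on 1 slide and the 4 HX630 arrays on another, so that slide and treatment cannot be told apart. The array of control 1 stood slightly apart from its group, with a mean correlation of 0.9945 with the other control arrays against a mean of 0.9962 for those. Of 9 corticotroph markers, 8 were well above background on all 8 arrays, and the exception was Avpr1b, the vasopressin receptor of corticotrophs, which was on none. Of 10 markers of other pituitary hormone cells, 2 (Gh and Lhb) were well above background on all 8 arrays, and Prl, Tshb and Cga on none. The log2 of the summed marker signals was 9.37 to 9.69 (corticotroph) and -2.62 to -1.67 (other) in control, against 8.92 to 8.99 and -2.31 to -2.08 with HX630. In RNA of whole cultures, fewer cells that make a transcript and less of it in each cell cannot be told apart.

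All 3 Nr4a genes were lower with HX630. Nr4a1 fell about 10.1-fold and Nr4a2 3.71-fold, and Nr4a3, which was faint in control, was no longer well above background in treated cells. The probes of Nr4a1 and Nr4a2 were called lower without overlap between the groups. Of the 28552 tested probes, 11.2% were called lower (3184 probes) and 7.46% higher (2131 probes), and 31.3% were lower without overlap. The Nr4a3 probe was also called lower without overlap, but it passed the detection filter only through the control arrays. Its call and lack of overlap follow partly from that filter and are no separate support. The median log2 fold change over all tested probes was -0.056. Scaling the arrays to their spike-in probes moved this median to 0.17 and the calls to 1889 lower and 4189 higher, and all 4 Nr4a probes were called lower there too.

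Nr4a1, or Nur77, is the member best known as an activator of Pomc transcription in corticotrophs. Its log2 signal was 3.89, 3.79, 3.745 and 3.86 in control 1 to 4. It was 0.89, 0.31, 0.31 and 0.43 in HX630 1 to 4. The groups did not overlap, and the lowest control array lay 2.85 above the highest HX630 array, a distance several times the range of 0.58 within the HX630 group. The mean fell from 3.82 ± 0.065 to 0.49 ± 0.28 (SD, n = 4 each), a log2 fold change of -3.33 (SE 0.129, 95% interval -3.63 to -3.03, limma adjusted p = 5.65e-07). The signal that remained was 9.93% of that in control. On the intensity scale of the scanner, the spot read 18789 to 24974 in control and 2275 to 3351 with HX630, far from the background in both. Ordered by fitted fold change, the probe was number 55 from the lowest of the 28552 (lowest 0.193%).

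Nr4a2, or Nurr1, activates Pomc together with Nr4a1 and is also required for the dopamine neurons of the midbrain. A pair of probes measured it, both against the same RefSeq transcript, and both gave a fall. The brighter probe had a log2 signal of 3.59, 3.51, 3.51 and 3.54 in control 1 to 4, and of 1.80, 1.55, 1.64 and 1.58 in HX630 1 to 4. The mean fell from 3.54 ± 0.036 to 1.64 ± 0.11 (SD, n = 4 each), a log2 fold change of -1.89 (SE 0.059, 95% interval -2.03 to -1.76, limma adjusted p = 2.56e-07), or 26.9% of the control signal. The control arrays agreed closely, within 0.081, and the groups were 1.70 apart at their nearest arrays.

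The dimmer Nr4a2 probe read 2.06, 1.92, 1.85 and 1.97 in control 1 to 4, and -0.025, -0.23, -0.16 and -0.23 in HX630 1 to 4. Its log2 fold change was -2.11 (SE 0.064, 95% interval -2.26 to -1.96, limma adjusted p = 2.34e-07), or 23.1% of the control signal. The 2 probes of this gene therefore differed in the size of the fall by 0.22 on the log2 scale, which is small beside the fall itself but larger than the spread between arrays (exact permutation test, two-sided, p = 0.0286). With 4 arrays against 4, 0.0286 is the smallest p this test can give, and each of the 4 Nr4a probes reached it in HX630 against control.

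**Figure D1:**
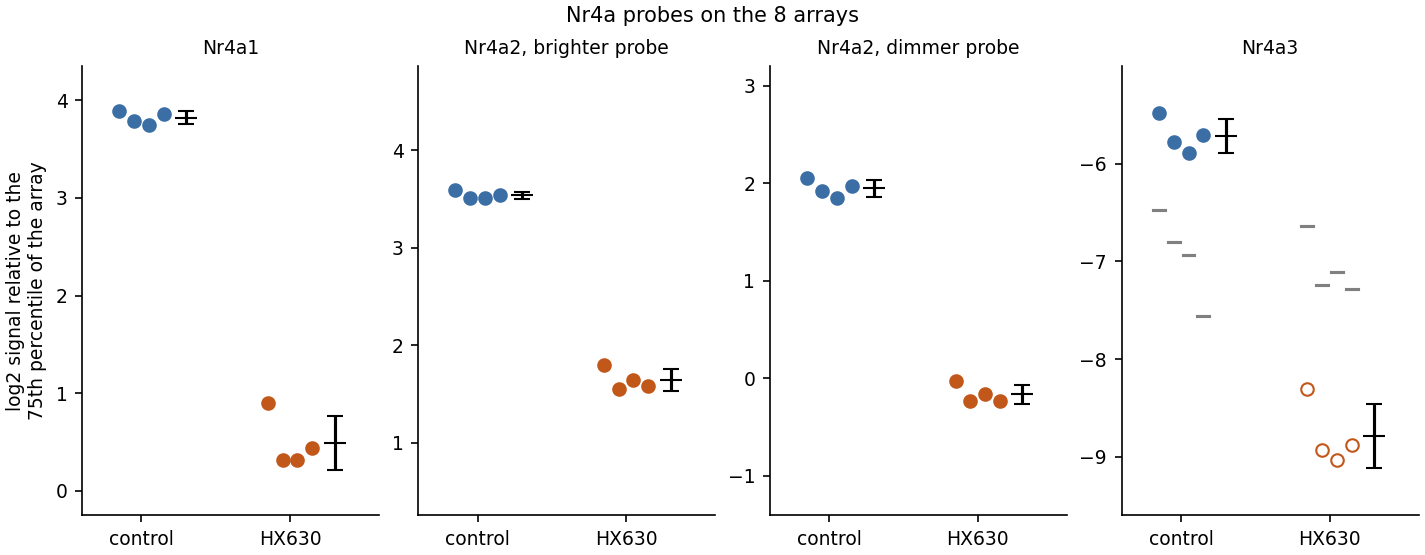
Log2 signal of the 4 Nr4a probes relative to the 75th percentile of the array (y axis, the same length of scale in each panel) for 4 control arrays (blue) and 4 HX630 arrays (orange), in order of replicate from left to right. Black marks are the mean ± SD, open circles are arrays on which the probe was not well above background, and grey dashes in the Nr4a3 panel are the lowest signal of any probe well above background on that array. The groups do not overlap at any of the 4 probes, and every HX630 value of Nr4a3 lies under its dash.

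Nr4a3, or NOR-1, was faint. Its probe is printed on 10 spots of each array, and the mean log2 signal over them was -5.48, -5.78, -5.89 and -5.70 in control 1 to 4. It was -8.31, -8.94, -9.03 and -8.88 in HX630 1 to 4. In control all 40 spots were well above background, at intensities of 19.7 to 37.2. With HX630 none of the 34 spots used was, and they read 2.80 to 10.66. Another 6 spots of the HX630 arrays were left out because Feature Extraction marked them as outliers, among them a spot at 50.6 on HX630 2. With those spots kept the fitted log2 fold change was -2.99.

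Since no HX630 array measured Nr4a3 above background, its fall has only a rough lower bound. Against the lowest signal of any probe well above background on each HX630 array, Nr4a3 was 2.56-fold lower than in control. This bound is not strict, because brighter probes can fail the same test. The receptor gene Nr2e3 failed it on all 4 HX630 arrays at signals up to -6.37. The fit on the measured means, -5.71 ± 0.17 and -8.79 ± 0.33 (SD, n = 4 each), gave a limma adjusted p of 2.56e-06. This p rests on HX630 signals below background, and the probe entered the comparison only through control. The fitted log2 fold change of -3.08 was reduced to -1.31 under another background correction (normexp), where the adjusted p was 0.00217. That fall is slightly smaller than the rough bound, which is 1.35 on the log2 scale.

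**Figure D2:**
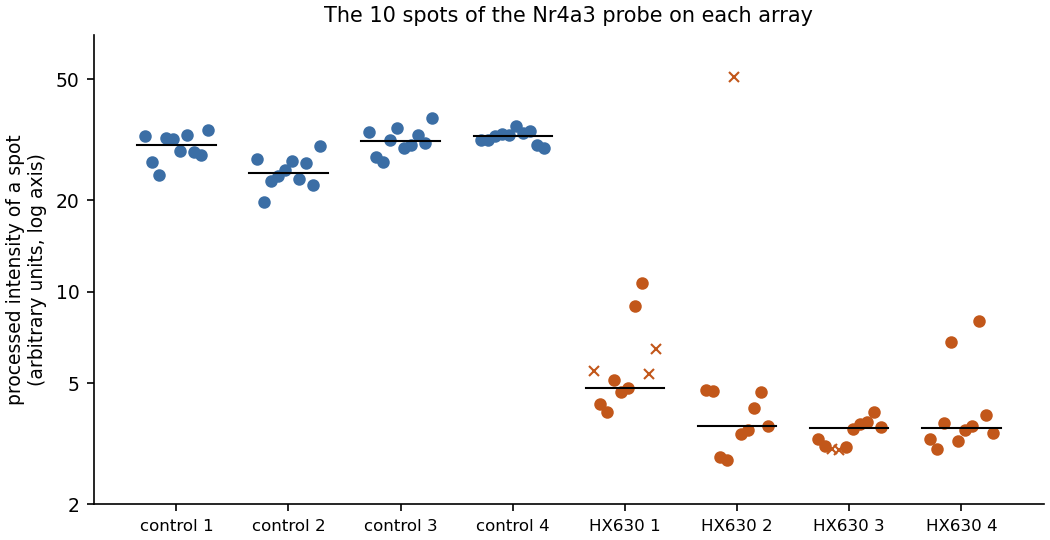
Processed intensity of the 10 spots of the Nr4a3 probe on each of the 8 arrays (y axis, arbitrary units on a log scale). Circles are spots used, crosses are spots marked as outliers and left out, and the black line is the median of the spots used. The 40 control spots lie between 19.7 and 37.2, and the 34 HX630 spots used lie between 2.80 and 10.66.

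Whether Nr4a1 and Nr4a2 fell by the same amount was tested within arrays, where scaling between arrays cancels. The log2 signal of Nr4a1 minus that of the brighter Nr4a2 probe was 0.29 ± 0.039 in control and -1.15 ± 0.18 with HX630 (SD, n = 4 each). Nr4a1 thus fell by 1.44 more than Nr4a2 on the log2 scale (SE 0.092, exact permutation test, two-sided, p = 0.0286, and 0.0286 after Benjamini-Hochberg adjustment over the 3 pairs of genes). The adjusted value did not rise because the pairs with Nr4a3 reached the same p, though the HX630 signals of Nr4a3 lie below background. Against the dimmer Nr4a2 probe the difference was -1.22 (exact permutation p = 0.0286). The rough bound of Nr4a3 is smaller than the falls of both other genes, so that its place between or beside them was not measured.

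The arrays of each group kept a similar order at the 4 Nr4a probes. HX630 1 had the highest signal of the HX630 group at all 4 probes, and control 1 had the highest of the control group at all 4. Without HX630 1 the log2 fold change of Nr4a1 was -3.47, and without control 1 it was -3.31. Over all single arrays left out, it ranged from -3.47 to -3.27 for Nr4a1, from -1.94 to -1.86 for the brighter and from -2.16 to -2.07 for the dimmer Nr4a2 probe, and from -3.24 to -2.995 for Nr4a3.

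Of the 40 nuclear receptors tested, 38 were measured above background in both groups, and among these Nr4a1 had the lowest log2 fold change and Nr4a2 was number 3. Esrrb, an estrogen-related orphan receptor, stood between them with -2.41 (SE 0.049, adjusted p = 7.52e-08). Nr4a3, whose fall has only a rough bound, has no place in this order. Of the 37 receptors other than Nr4a, 9 were called lower (24.3%) and 1 higher, with a median log2 fold change of -0.31, where 11.2% of the 15319 genes tested were called lower and 8.38% higher, with a median of -0.034. With spike-in scaling 6 of these receptors were called lower and 4 higher, with a median of -0.092. Next after Nr4a2 came Nr1h3, the oxysterol receptor LXRα (-1.26, adjusted p = 7.94e-07). Nr2e3, a photoreceptor receptor, was the other gene that no HX630 array measured above background, and it entered the comparison only through control. It is among the 9 called lower (adjusted p = 0.00217), with a rough bound of 2.36-fold. Under normexp it had -0.96 and was not called. The called receptor that rose was Nr5a2 (1.02, adjusted p = 7.24e-07), known in liver for its part in bile acid synthesis. All these values come from the limma fit over the 8 arrays.

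**Figure D3:**
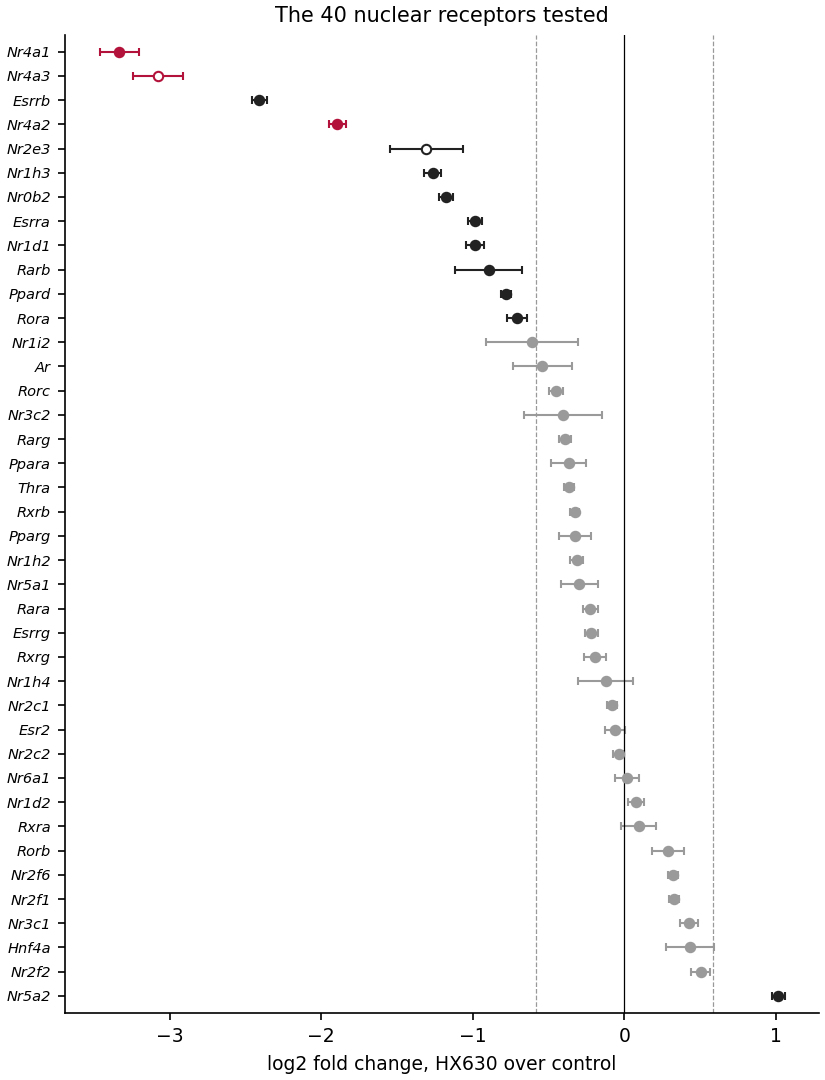
Log2 fold change of HX630 over control (x axis) with its standard error for the 40 nuclear receptors tested, 1 probe a gene, ordered by fitted value. Nr4a genes are red, other called genes black and genes not called grey, open circles are genes not well above background on any array of a group, and dashed lines mark the fold threshold of 1.5. Nr4a1 (-3.33) and Nr4a2 (-1.89) take places 1 and 3 from the lowest among filled circles, and the open circle of Nr4a3 marks a fitted value whose place is not measured.

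Other early response genes were set beside the Nr4a genes, from a list of 24 that are induced by cAMP, calcium or growth factors. Of the 23 tested, 14 were called lower (60.9%), 1 was called higher and 8 were not called, against 11.2% lower and 8.38% higher over all genes tested. The list was chosen with earlier results of these data known, so that this difference is no independent support. The median log2 fold change was -0.84 (12 lower, 3 higher and a median of -0.61 with spike-in scaling). The largest fall was that of Ppargc1a, the coactivator PGC-1α, at -4.94 (SE 0.206, adjusted p = 7.74e-07), which exceeded that of Nr4a1. Fos, the AP-1 subunit, had -2.53 (SE 0.112, adjusted p = 9.8e-07). Nfil3, a repressor of the bZIP family, had -2.19 (SE 0.062, adjusted p = 1.94e-07). Crem, which encodes both activators and the repressor ICER at cAMP response elements, had -2.13 (SE 0.037, adjusted p = 5.71e-08), and its other probe had -1.15. At the brightest probe of each gene, the falls of Fos, Nfil3 and Crem thus lay between those of Nr4a2 and Nr4a1 in size.

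The other 10 early response genes called lower had log2 fold changes from -1.78 for Sik1, a kinase that restrains the CREB coactivators, to -0.60 for Sst, the hormone somatostatin. Gadd45b, a growth arrest and stress gene, was the gene called higher (1.00, adjusted p = 8.42e-07). Not all early genes were called lower like the Nr4a genes. Egr1, a zinc finger factor that the same signals induce, had a log2 fold change of 0.56 (adjusted p = 6.09e-04, short of the fold threshold), and Junb, an AP-1 subunit, had 0.09 (adjusted p = 0.465). Egr1 and Junb were picked after their values were seen. When the AP-1 and Egr genes were left out of the list, a choice made after seeing the data, 11 of 16 were called lower.

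**Figure D4:**
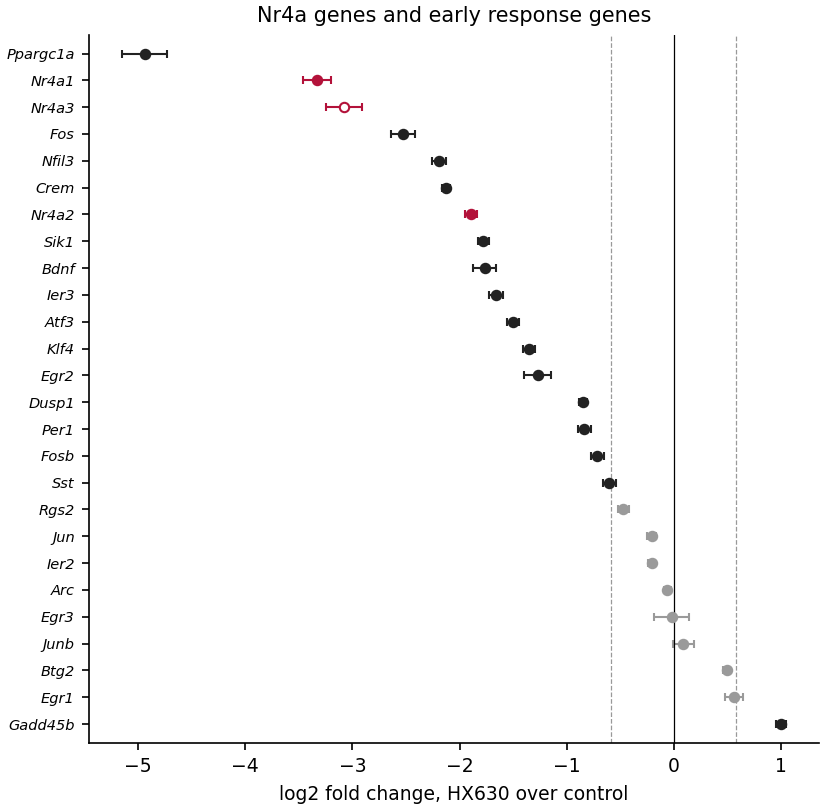
Log2 fold change of HX630 over control (x axis) with its standard error for the 3 Nr4a genes (red) and 23 early response genes (black where called, grey where not), ordered by value. The open circle of Nr4a3 stands for a fitted value that rests on signals below background, and dashed lines mark the fold threshold of 1.5. The Nr4a genes lie among the lower values, from -3.33 to -1.89, and 14 of the 23 other genes were called lower.

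No other early response gene with a RefSeq window matched the Nr4a genes in the number of TGACG cores. Of 18 such genes, 15 held at least 1 TGACG, none held 4, and 4 held the full element TGACGTCA. Over the 12198 tested genes with a window, the share called lower was 11.7% with no TGACG, 9.59% with 1, 9.68% with 2, 13.5% with 3 and 10% with 4 or more (6 of 60 genes), against 11.1% overall. The 3 Nr4a genes are among those 6, and without them 3 of 57 genes were called lower (5.26%). The share called higher went down with the number of cores, from 9.01% with none through 7.14%, 5.3% and 3.63% to 1.67% with 4 or more, and the median log2 fold change from -0.026 to -0.155 (-0.128 without the Nr4a genes). The share called lower thus did not follow the number of cores, while the share called higher and the median did, and neither relation was tested. The classes with 3 and with 4 or more cores are small, at 193 and 60 genes.

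Regulators of Nr4a transcription were read from a list of 24 genes of the PKA, CREB, MEF2, class IIa histone deacetylase and ERK5 pathways. Of 23 tested, 4 were called lower (17.4%) and 3 higher (13%), not far from the 11.2% and 8.38% of all genes tested, with a median log2 fold change of -0.07, which was 0.15 with spike-in scaling. The largest change was in Prkar1a, the type I regulatory subunit of PKA that holds the kinase inactive without cAMP, which fell by 1.89 on the log2 scale (SE 0.077, adjusted p = 6.87e-07), and by 1.58 at its other probe. Prkar1b, a sister subunit, rose by 1.58 (SE 0.069, adjusted p = 9.27e-07). Hdac5, a deacetylase that represses MEF2 targets, fell by 1.30 (adjusted p = 1.99e-06), and Mef2d, a calcium-responsive activator of Nr4a1, by 0.99 (adjusted p = 2.43e-06). The remaining called genes were Hdac7 (-0.93), another class IIa deacetylase, Prkar2b (0.78), a type II PKA subunit, and Crtc3 (0.62), a CREB coactivator. Their other probes were not called, at 0.51 and 0.53 for Prkar2b and -0.005 for Crtc3. Creb1, which encodes CREB itself, had 0.083 (adjusted p = 0.0835) and -0.18 at its other probe.

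Of 15 partners of Nr4a proteins, 1 was called lower (6.67%) and none higher, where 11.2% and 8.38% of all genes tested were, with a median log2 fold change of 0.096. With spike-in scaling 1 was called lower and 2 higher, with a median of 0.32. At an adjusted p below 0.01 without the fold threshold, 9 of the 15 passed, where 51.2% of all genes tested did. The called gene was Nr0b2, the corepressor SHP that binds Nr4a1 (-1.18, SE 0.045, adjusted p = 5.39e-07). Among the RXRs, with which Nr4a1 and Nr4a2 pair, Rxra had 0.096 (adjusted p = 0.503) but -0.68 at its other probe, which was called lower. Rxrb had -0.33 (adjusted p = 5.14e-05, short of the fold threshold), and Rxrg had -0.19 (adjusted p = 0.0576) and 0.24 at its other probe. The probes of Rxra and Rxrg thus gave no single direction for these genes. Nr3c1, the glucocorticoid receptor, which opposes Nr4a1 on the Pomc promoter, had 0.43 (adjusted p = 5.38e-04, short of the fold threshold).

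Known targets of Nr4a receptors were read from a list of 22 genes drawn from corticotrophs, dopamine neurons, liver, muscle and adrenal cells. Only 16 were tested, of which 4 were called lower (25%) and 3 higher (18.8%), where 11.2% and 8.38% of all genes tested were. The median log2 fold change was -0.26 (2 lower, 3 higher and a median of -0.043 with spike-in scaling). Eno3, the muscle enolase of glycolysis, fell by 3.16 (SE 0.109, adjusted p = 3.72e-07), and Pygm, muscle glycogen phosphorylase, fell by 1.503 (adjusted p = 2.12e-05). The other targets called lower were the muscle genes Fbp2 (-0.76), a fructose bisphosphatase, and Slc2a4 (-0.59), the glucose transporter GLUT4. In the opposite direction, Ddc and Th, enzymes of dopamine synthesis, rose by 1.40 (adjusted p = 2.97e-06) and 0.95 (adjusted p = 1.58e-05), and Ucp3, a mitochondrial carrier of muscle, by 1.10 (adjusted p = 3.85e-04). The target best known in corticotrophs, Pomc, had a log2 signal of 8.03 ± 0.18 in control and 7.57 ± 0.041 with HX630 (SD, n = 4 each), a change of -0.45 (SE 0.086, adjusted p = 0.00241) that did not reach the fold threshold. Like genes in general, the called targets thus lay in both directions.

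**Figure D5:**
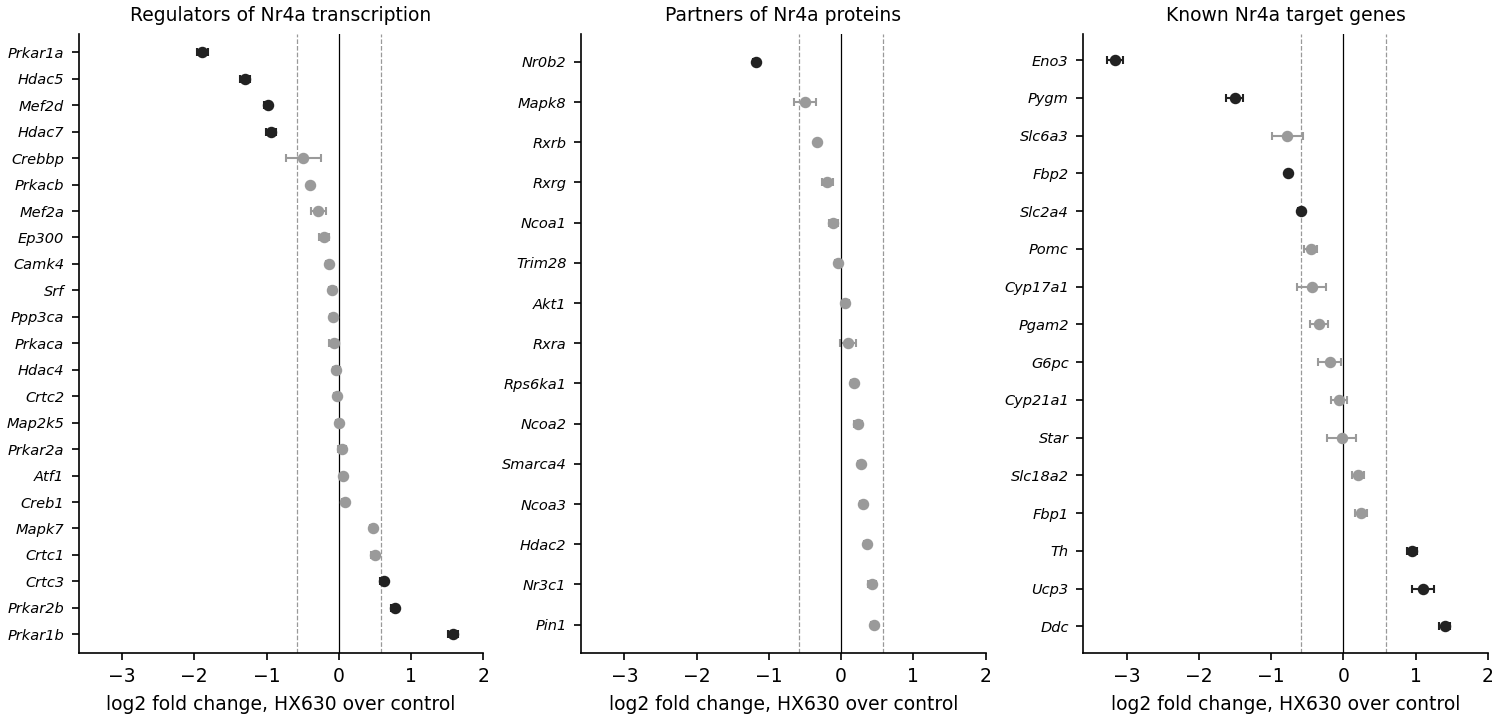
Log2 fold change of HX630 over control (x axis) with its standard error for regulators of Nr4a transcription (left, 23 genes), partners of Nr4a proteins (middle, 15 genes) and known Nr4a targets (right, 16 genes). Called genes are black and others grey, and dashed lines mark the fold threshold of 1.5. The medians are -0.07, 0.096 and -0.26, and the called genes lie on both sides of 0 among regulators and targets.

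Of the 8 corticotroph genes tested, Pomc included, 2 were called lower (25%) and 2 higher (25%), where 11.2% and 8.38% of all genes tested were. The median log2 fold change was -0.38, which was -0.16 with spike-in scaling. Without overlap between the groups, 6 of the 8 were lower and 2 higher, where 5029 and 4388 of the 15319 genes tested were. Pcsk1, the convertase that cuts the Pomc precursor to ACTH, fell by 2.06 (adjusted p = 1.26e-07), and Cpe, the carboxypeptidase that trims its products, by 0.96 (adjusted p = 3.18e-05). Crhr1, the CRH receptor, whose signal induces Nr4a1, rose by 1.11 (adjusted p = 5.12e-07), and Neurod1, a Pomc activator, by 0.72 (adjusted p = 1.43e-04). Tbx19, which specifies the lineage, had -0.37 (adjusted p = 5.06e-04, short of the fold threshold). Of the other pituitary genes, 4 were tested and Gh, growth hormone, was called lower (-0.79, adjusted p = 6.06e-04), though not with spike-in scaling (-0.57).

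The genes most like each Nr4a gene over the 8 arrays were sought among 14303 genes well above background on all of them, by the root mean square difference between their signals and those of the Nr4a gene, each taken relative to its own control mean. For Nr4a1 they were Trpv4, a calcium-permeable channel (difference 0.083, log2 fold change -3.32), Prl2c1, of the prolactin family (0.109, -3.31), and Srpk3, a kinase of splicing factors (0.115, -3.42). Since prolactin family genes have near-identical copies, the probe of Prl2c1 may read more than 1 gene. For Nr4a2 they were Pde11a, a cyclic nucleotide phosphodiesterase (0.032, -1.88), Dusp4, a MAP kinase phosphatase (0.032, -1.93), and Mcrip2 (0.043, -1.87). For Nr4a3, whose HX630 signals lie below background, they were Ldhb, lactate dehydrogenase B (0.111, -3.06), Eno3 (0.130, -3.16) and Ttyh1 (0.134, -3.01). These are like a fitted fall of Nr4a3 whose size was not measured. Under normexp the log2 fold change was -1.31 for Nr4a3 and -2.14 for Ldhb. The 8 arrays fall into 2 groups, so that likeness here rests mainly on a fall of the same size.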

How the data were processed

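Total RNA of 8 samples was labeled with Cy3 and hybridized to 1-color Agilent 4x44K v2 mouse arrays, 1 array per sample. Per the labels, the authors deposited Feature Extraction output (version 10.7.3.1 in the submitters' processing notes), whose processed signal is a spot intensity after background subtraction, without scaling between arrays. They also deposited a log2 table made in GeneSpring. For nearly all probes of each array, it differed by at most 0.0013 from the log2 processed signal minus the array's 75th percentile. Its scale and centring are thus known. The deposited intensity was used here, with control spots and outlier spots left out and spots of a probe averaged.

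Groups were compared with limma 3.58.1 in R 4.3.3, a single fit over 28552 probes. For single probes, the exact permutation test ran over 70 regroupings. Accessions were matched to RefSeq symbols (GRCm38.p6) for 26055 probes, and where several probes of a gene were tested, the brightest stood for it. The text names every Nr4a probe, up to 4 called genes with the largest change in each list, 9 fixed genes and the 3 most similar genes of each Nr4a gene; genes that complete a count of 5 or fewer, and Sik1, Sst, Egr1 and Junb, were named after their values were seen. The Nr4a genes and all lists were chosen with earlier results of these data known. The number of arrays limits the precision. Alternatives were other scalings, background corrections, filters, variance models, the methods' t-test, thresholds, a replicate block and each array left out. The code was tested on simulated data. Motifs were counted in Python 3 with pandas. Real-time PCR, reporter and animal experiments were not analysed here.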

Additional observations from a re-analysis of the deposited data

Results flagged for a closer look

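Of 82 groups of 4 arrays looked at (Nr4a probes, named genes and array measures), 6 held an array whose gap to the nearest other array took up an unusual share of the range of its group by Dixon's criterion, where chance gives about 1 in 20, or 4.1. None of them was an Nr4a probe. HX630 1 was high for Ppargc1a (gap share 0.894, log2 signal -3.48 against a mean of -4.37 for the others), for Eno3 (0.956, 2.81 against 2.36) and for Dusp4 (0.902, -0.56 against -0.82). The same array was the highest of its group at the 4 Nr4a probes, where the gap share reached 0.790 for Nr4a1 and 0.789 for Nr4a3. Control 1 was low for Ucp3 (0.970, -0.13 against 0.24) and in its mean correlation with its own group (0.946, 0.9945 against 0.9962). HX630 4 was high for Gh (0.857, -5.64 against -5.95).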

How the results depend on the processing

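The 4 Nr4a probes were called lower in all 98 of their values under the other settings, from -3.47 to -3.11 (log2 fold change) for Nr4a1, -2.0015 to -1.67 and -2.16 to -1.89 for the brighter and dimmer Nr4a2 probes, and -3.24 to -1.31 for Nr4a3, which has no value where a probe must be well above background on all 8 arrays. The difference in change between Nr4a1 and Nr4a2 ranged from -1.60 to -1.38 and from -1.34 to -1.16 with the dimmer probe. Scaling to spike-in probes moved the median of all tested probes from -0.056 to 0.17, and the calls from 2131 higher and 3184 lower (40.1% higher) to 4189 and 1889 (68.9% higher), with 3 partners called; Gh (-0.57) was then not called and Nr3c1 (0.65) was. Median scaling gave 51.6% higher. Normexp gave 1355 higher (31.8%) and 2 partners, and Nr2e3 (-0.96) was not called. Without the fold threshold 5763 probes were higher and 7245 lower, with 9 partners, 8 corticotroph genes and 21 other nuclear receptors called. With an array left out, the calls ranged from 1944 to 2568 higher and from 2879 to 3369 lower, and the partners from 1 to 2 (2 without control replicate 3). The methods' t-test called 2110 higher and 3127 lower, and 1981 and 2883 after Benjamini-Hochberg adjustment. Genes that were not called changed sign: Rxrg had 0.029 with spike-in scaling and 0.022 as a mean of probes, Rxra -0.063 with normexp and -0.29 as a mean of probes, and Creb1 -0.0051 with normexp and -0.049 as a mean of probes. The cause of these shifts was not tested. Same-numbered arrays deviated together with correlations of 0.52, -0.0093, 0.24 and 0.38, so that the numbers were not taken to pair the samples; with the replicate number as a block, 2210 probes were higher and 3345 lower, and the Nr4a probes had adjusted p-values up to 5.69e-05. The early response list without AP-1 and Egr genes was chosen after seeing the data.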
